A study of Sus scrofa with 48 samples.

Results

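Gluteus muscle (GM) was compared with liver in the same 16 pigs. All 16 arrays hybridised with F2 skeletal muscle RNA and all 16 arrays hybridised with F2 liver RNA entered the comparison, which makes 32 of the 48 arrays of the series, and the arrays were paired by the pig number in their titles. The animals were Swiss Large White F2 offspring of F1 boars that had only ever eaten a standard diet. In the F2 C line, 8 pigs, the F0 boars at the head of the line had been given a standard diet, and in the F2 E line, 8 pigs, the F0 boars had been given that diet with added methyl donors and cofactors (methionine, choline, betaine, B vitamins and folate) while they grew up. The F2 pigs themselves were all fed the standard diet. Each line had 4 castrated males and 4 females, and single pigs are named by the end of their array titles, m_ or f_ for the sex followed by the pig number. The study bred each F2 line from fewer F1 boars than the 8 pigs measured here, so some pigs of a line had the same sire. The age, litter and sire of single pigs are not given in the sources used here. The tests below took the pigs as independent. RNA was measured on a one-colour Agilent porcine array, and kidney was not analysed here.

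Skeletal muscle is a bundle of multinucleate fibres whose RNA is dominated by transcripts for the sarcomere, the stack of thick and thin filaments that slides to shorten the cell, and for the enzymes that keep ATP supplied while it does. Slow fibres rely on mitochondria and fast fibres on glycolysis, and each type uses its own set of myosin and troponin isoforms. Liver is built mainly of hepatocytes, which secrete most plasma proteins, make bile acids, glucose, ketone bodies and urea, and detoxify drugs with cytochromes P450. A tissue comparison of bulk RNA reads out these cell types, and in such samples fewer cells of a type and less RNA per cell cannot be told apart.

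Signals are given on the normalized log2 scale and differences are GM minus liver, so that a positive difference is higher in GM. A probe was called different between the tissues when the limma adjusted p was below 0.05 and the tissues differed at least 2-fold. Where a probe was not well above the background of the array on any array of a tissue, the fold is given as a lower bound. Where it was above background on only some arrays of the dimmer tissue, a measured fold rests in part on signal at background. The number of arrays above background is given for many but not all of these genes. Of 43603 probes, 28792 could be tested, since a probe had to clear the background in 50% or more of GM arrays or of liver arrays. A gene could thus enter through the tissue where it was bright, and counts of genes refer to those tested. Most genes of the lists below had no named probe (8 of the 24 listed thick filament genes had one, for example), and 12 list genes with a named probe were not tested. Names were given to 2590 probes through RefSeq accessions, and each of the 1573 named genes tested was represented by its brightest tested probe.

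The labels were checked first. All 12 muscle marker genes with a named probe, among them CKM, MYH1 and TNNT3, were higher in GM, and all 10 liver marker genes, among them ALB, TTR and CYP2E1, were higher in liver. The median raw signal was 48 to 88.5 on GM arrays and 88 to 167 on liver arrays, and 18830 to 28600 probes were above background on a GM array against 23977 to 30658 on a liver array. No spot was saturated. Each slide of 4 arrays held 1 tissue, so slide and tissue cannot be told apart within a slide, although each tissue was spread over 4 slides. A liver slide with 4 males was scanned on another day than the rest.

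The transcriptomes of GM and liver differed throughout the array. In GM 5001 probes were higher (17.4% of those tested), in liver 4787 (16.6%), together 9788 or 34% of those tested, and with the fold threshold set aside 22629 probes (78.6%) had an adjusted p below 0.05. For 8499 probes (29.5%) the lowest array of a tissue lay above the highest array of the other. Differences of at least 16-fold were found in 554 probes higher in GM and 679 probes higher in liver. Among named genes 349 were higher in GM (22.2%) and 451 in liver (28.7%), with a median difference of -0.14 against -0.03 for all probes. The lists of genes described below are to be read against these shares.

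**Figure D1:**
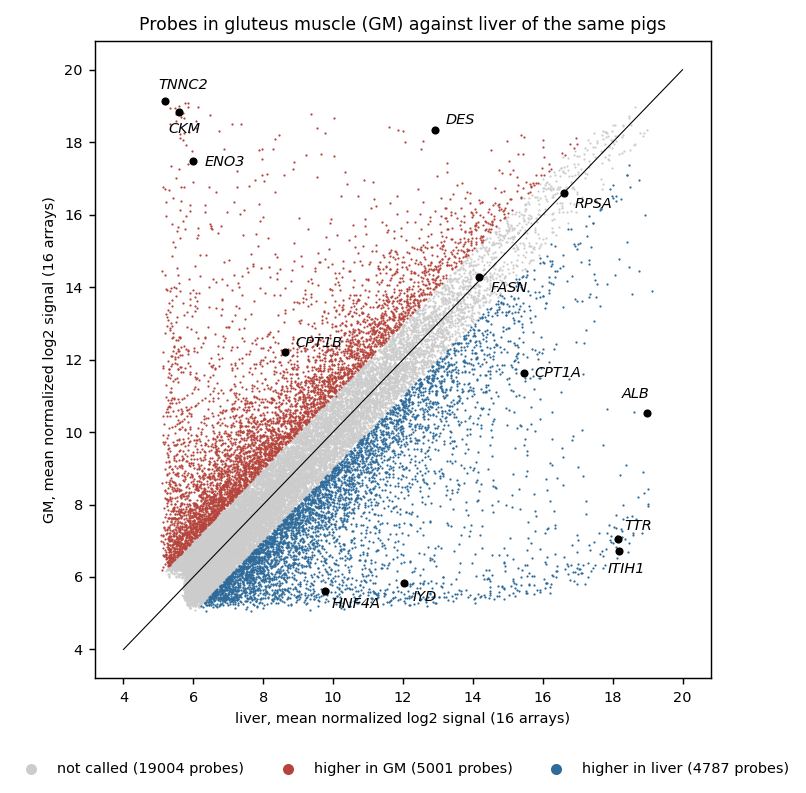
Mean normalized log2 signal of each tested probe in liver (x axis) and in GM (y axis), each over 16 arrays, coloured by its call. The 5001 probes higher in GM and the 4787 higher in liver lie on either side of the diagonal and spread across the whole range of signals.

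Genes of the contractile apparatus were higher in GM. All 8 thick filament genes tested, 9 of 10 thin filament genes and all 13 genes of the Z disc and membrane skeleton were, with median differences of 12.57, 8.96 and 7.48. The largest difference of a named gene belonged to TNNC2, the calcium sensor of fast fibres. Its signal on GM arrays was 18.93 at the lowest, 19.16 at the median and 19.18 at the highest, against 4.96, 5.21 and 5.45 on liver arrays, where it was not above background. The difference was 13.93 ± 0.06 (SE, n = 16; limma adjusted p = 3.37e-32), at least 11640-fold. TNNT3, fast troponin T, ran from 18.98 over 19.10 to 19.18 in GM and from 5.42 over 5.72 to 6.02 in liver. The measured fold was 10340, with the probe above background on 2 of the 16 liver arrays.

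Myosin heavy chains, the motors of the thick filament, followed. MYH2, of fast oxidative fibres, ran from 17.85 over 18.50 to 18.86 in GM and from 5.09 over 5.33 to 5.75 in liver, at least 7454-fold. MYH4, of the fastest fibres, ran from 18.77 over 18.98 to 19.02 against 5.14, 5.80 and 6.78, a measured fold of 8850 with 8 of the 16 liver arrays above background. For the slow heavy chain MYH7 the GM arrays were wider apart, at 15.93, 17.92 and 18.69, against 5.77, 6.92 and 8.15 in liver (difference 10.92 ± 0.20; adjusted p = 4.25e-22). The fast chain MYH1 differed by 12.82, and the light chains MYLPF and MYL1, which stiffen the myosin neck, by 12.63 and 12.50, each with 1 liver array above background. None of these genes overlapped between the tissues.

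With each gene taken by its brightest probe, a cardiac gene was the single exception among the filament genes. TNNI3, the troponin I of heart, ran from 9.19 over 11.38 to 13.30 in GM and from 9.59 over 10.68 to 11.59 in liver, with a difference of 0.43 ± 0.28 that did not pass the test (adjusted p = 0.161), while its fast and slow counterparts TNNI2 and TNNI1 differed by 12.28 and 8.51. The tropomyosin gene TPM3 was counted as higher in GM by its brightest probe (3.30), but its other probes were called higher in liver (-1.40 and -1.18). By the median of a gene's probes 8 thin filament genes were higher in GM and 1 in liver. In the Z disc, which anchors the thin filaments, the calcineurin-binding proteins MYOZ1 and MYOZ3 differed by 12.51 and 12.40, with 15 and 8 liver arrays above background. The intermediate filament gene DES was bright in liver too, at 12.50, 12.91 and 13.33, against 17.97, 18.37 and 18.79 in GM, a difference of 43.05-fold (5.43 ± 0.09; adjusted p = 2.16e-22). Dystrophin (DMD), which ties the cytoskeleton to the membrane, had the smallest difference of its list. Its arrays ran from 7.77 over 8.29 to 8.84 in GM and from 6.34 over 6.71 to 7.03 in liver, a fold of 3.10 (adjusted p = 8.47e-13), still without overlap.

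Genes that couple excitation to contraction were higher in GM in 5 of 5 cases (median difference 8.52). RYR1, the calcium release channel of the sarcoplasmic reticulum, ran from 15.97 over 16.28 to 16.93 in GM and from 5.40 over 5.67 to 5.88 in liver (10.73 ± 0.08; adjusted p = 1.72e-28), with 2 liver arrays above background. SLN, a small inhibitor of the calcium pump, ran from 17.77 over 18.66 to 18.88 against 5.27, 5.43 and 6.30, at least 7507-fold. The related inhibitor PLN was closer between the tissues, at 10.30, 12.17 and 14.21 in GM and from 8.68 at the lowest to a median of 9.11 in liver (3.13 ± 0.30).

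Energy supply of the fibre gave the same direction. All 5 genes of high energy phosphates (median difference 9.14) and all 8 genes of muscle glycolysis and glycogen (4.01) were higher in GM. CKM, the creatine kinase that regenerates ATP, ran from 18.71 over 18.85 to 18.90 in GM and from 5.37 over 5.58 to 5.89 in liver, where 2 arrays were above background, a measured fold of 9737. ENO3, the muscle enolase, ran from 16.37 over 17.56 to 18.06 against 5.45, 6.04 and 6.30 (11.49 ± 0.12; adjusted p = 1.54e-26), with 11 liver arrays above background. PFKM, the muscle phosphofructokinase, ran from 16.09 over 17.20 to 17.43 against 7.76, 8.11 and 8.42 (514-fold; adjusted p = 1.60e-25). TPI1 and GPI, glycolytic enzymes of all cells, differed by 4.69 and 4.09 and did not overlap either. PFKFB1, which sets the level of a glycolytic activator, was the single member of the glycolysis list with overlapping arrays (1.80).

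Regulators of muscle fate and mass were called in 10 of 11 cases, with a smaller median difference of 2.62. MSTN, the secreted brake on muscle growth, ran from 7.07 over 8.89 to 9.44 in GM and was not above background on any liver array (5.04, 5.40 and 5.57), at least 8.06-fold (3.25 ± 0.14; adjusted p = 3.12e-15). MYOD1, the factor that commits cells to muscle, ran from 7.26 over 8.32 to 9.37 against 5.29, 5.56 and 6.40 (measured fold 6.17 with 2 liver arrays above background; adjusted p = 8.43e-13). Follistatin (FST), which binds myostatin, only just passed, at 2.04-fold (adjusted p = 0.0202), and the median of its 2 probes (0.62) did not reach 2-fold. Its arrays overlapped, with 9.88, 11.24 and 12.61 in GM and 7.96, 9.87 and 12.88 in liver. MYOG, the differentiation factor, ran from 9.15 over 10.52 to 11.21 against 8.97, 9.73 and 10.70, and its difference of 0.60 ± 0.14 stayed under 2-fold.

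Liver in turn was set apart by the proteins it secretes. All 25 plasma carriers and acute phase proteins, 10 of 11 coagulation genes, 20 of 21 complement genes and all 10 genes of apolipoproteins and lipid export were higher in liver, with median differences of -8.49, -8.78, -6.95 and -8.24. ITIH1, which links hyaluronan to protein, had the largest difference among named genes higher in liver. Its arrays ran from 5.78 over 6.50 to 8.43 in GM and from 17.59 over 18.25 to 18.40 in liver, 2802-fold (-11.45 ± 0.15; adjusted p = 2.18e-24), and the median of its 2 probes was -9.12. APOA4, an apolipoprotein of lipid export, ran from 5.72 over 6.74 to 9.99 against 17.48, 18.67 and 19.00 (-11.38 ± 0.34, n = 14; limma adjusted p = 8.68e-17). The thyroid hormone carrier TTR ran from 5.46 over 6.97 to 9.31 against 17.81, 18.19 and 18.39 (-11.09 ± 0.27, n = 15; limma adjusted p = 4.81e-19). The genes ITIH1, APOA4 and TTR were above background on 12, 11 and 10 of the 16 GM arrays. For these genes the liver arrays lay close together and the GM arrays were spread over a wider range.

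Albumin (ALB), the main plasma protein, was present on GM arrays at very different levels. It ran from 7.68 over 10.31 to 13.39 in GM and from 18.85 over 18.98 to 19.10 in liver, a fold of 319 (-8.32 ± 0.35, n = 14; limma adjusted p = 2.37e-14). HPX, which binds free haem, ran from 6.69 over 7.86 to 9.61 in GM against 18.88, 19.02 and 19.10 in liver, a fold of 2124. HP, which binds free haemoglobin, differed by -10.59. The lactonase PON3 was the single member of the carrier list with overlapping arrays, at 9.40, 11.01 and 13.77 in GM and 12.11, 12.95 and 17.07 in liver (-2.77).

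In the coagulation list, plasminogen (PLG), whose active form dissolves clots, ran from 5.80 over 7.04 to 8.98 in GM and from 17.93 over 18.67 to 18.95 in liver, 2499-fold with 12 GM arrays above background. SERPINC1, antithrombin, differed by -10.94 and F12, the contact factor, by -10.64, with 7 and 5 GM arrays above background, while F9 and PROC were not above background in GM (at least 323-fold and 459-fold). TFPI, an inhibitor of the start of coagulation that endothelium also makes, stood against the rest of its list. It ran from 7.87 over 8.43 to 8.93 in GM and from 7.03 over 7.24 to 7.71 in liver, 2.18-fold higher in GM (adjusted p = 8.42e-11). In the complement list, the central component C3 ran from 7.77 over 8.80 to 9.96 in GM against 18.05, 18.18 and 18.51 in liver (-9.41). CD59, a shield against complement on most cells, was the member that was not called (0.94 ± 0.12).

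**Figure D2:**
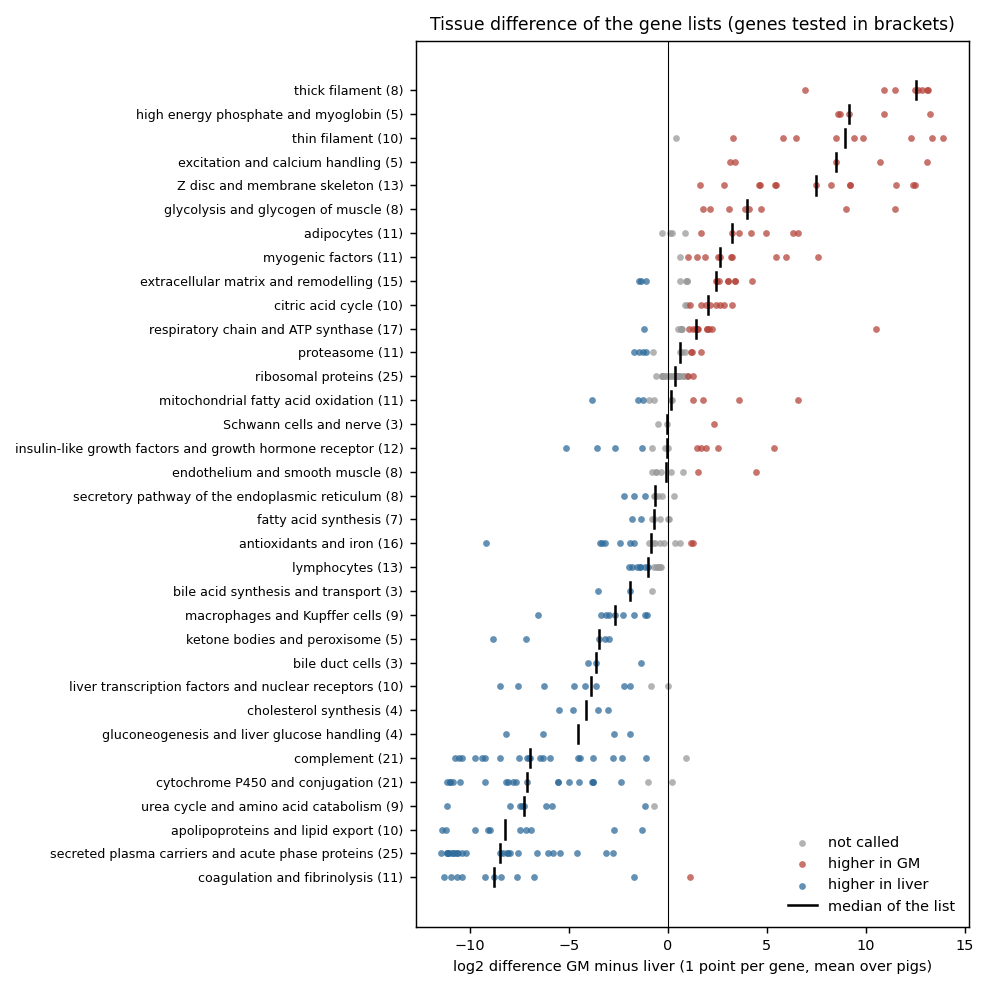
Log2 difference GM minus liver of each tested gene (1 point per gene, mean over pigs), with 1 row per gene list, the list's median as a bar and the number of genes tested in brackets. Lists run from plasma proteins and coagulation, with medians near -8.5, to the thick filament at 12.57, and ribosomal proteins lie close to 0.

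Hepatic metabolism and its regulators were mostly, but not always, higher in liver. Of the cytochrome P450 and conjugation genes 19 of 21 were called, with a median difference of -7.12. GSTA1, a glutathione transferase, ran from 5.55 over 6.73 to 8.65 in GM and from 17.90 over 18.29 to 18.46 in liver (2308-fold with 11 GM arrays above background; adjusted p = 2.06e-22). CYP2E1, which oxidises ethanol, ran from 5.93 over 7.69 to 10.20 against 18.42, 18.56 and 18.77 (1850-fold with 12 GM arrays above background). CYP2B22 did not differ beyond its error, at 6.93, 8.07 and 9.47 in GM and 6.89, 8.02 and 9.21 in liver (0.23 ± 0.16; adjusted p = 0.186).

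Nitrogen and glucose handling showed the same pattern. Of the genes of the urea cycle and amino acid catabolism 8 of 9 were higher in liver (median -7.24), and the exception, the transaminase GOT1, stayed under 2-fold (-0.71). ARG1, which releases urea, ran from 5.42 over 6.25 to 7.46 in GM and from 16.52 over 17.50 to 18.09 in liver (2306-fold with 8 GM arrays above background, n = 15; limma adjusted p = 2.35e-22). FBP1, which commits carbon to glucose, ran from 8.91 over 9.61 to 10.67 against 17.23, 17.80 and 18.16 (285-fold), and all 4 gluconeogenic genes were called. The glucose transporter SLC2A2 was not above background on any GM array, at least 53.0-fold lower than in liver.

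Lipid pathways fell into distinct groups. All 4 cholesterol synthesis genes were higher in liver (median -4.14). SQLE, which oxidises squalene, ran from 7.37 over 7.88 to 9.15 in GM and from 11.46 over 12.59 to 14.07 in liver (27.2-fold; adjusted p = 1.82e-17). Ketone body and peroxisome genes were higher in liver in 5 of 5 cases (median -3.48). CYP7A1, which starts bile acid synthesis, was dim in liver itself, at 5.55, 7.02 and 9.03, and not above background in GM, where it was at least 2.42-fold lower.

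Among 7 genes of fatty acid synthesis 2 were called, DGAT1 (-1.83) and ACLY (-1.34), both higher in liver, and the median of the 2 ACLY probes (-0.74) was under 2-fold. Fatty acid synthase (FASN) ran from 12.47 over 14.30 to 15.44 in GM and from 12.08 over 14.56 to 15.45 in liver, with a difference of 0.04 ± 0.19 (n = 15; limma adjusted p = 0.838). The desaturase SCD differed by -0.37 ± 0.15. The lipogenic regulator SREBF1 varied more between pigs than between tissues, at 9.13, 13.55 and 13.93 in GM and 10.54, 13.15 and 13.89 in liver, and its difference ran from -4.33 to 1.86 within pigs.

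Of the liver transcription factors and nuclear receptors 8 of 10 were higher in liver (median -3.88). NR1I3, which senses foreign compounds, differed most (-8.48 ± 0.15), with 2 GM arrays above background. HNF4A, a factor that maintains hepatocyte identity, ran from 5.25 over 5.57 to 6.24 in GM, where no array was above background, and from 9.11 over 9.68 to 10.39 in liver, at least 14.5-fold (-4.16 ± 0.11; adjusted p = 6.09e-19). GATA4 (-0.86) and SREBF1 (0.03) were not called. MYC, a growth regulator outside this list, ran from 8.99 over 9.90 to 11.09 in GM against 9.61, 10.89 and 12.23 in liver (-0.95 ± 0.17; adjusted p = 3.40e-05), just under the 2-fold threshold, and passed it when pig f_2950 or pig f_2968 was left out.

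Processes that every cell needs gave smaller differences. In the citric acid cycle 8 of 10 genes were higher in GM (median 2.03), led by IDH3A, a subunit of isocitrate dehydrogenase, at 14.46, 15.00 and 15.51 in GM and 10.86, 11.69 and 12.72 in liver (9.44-fold). In the respiratory chain and ATP synthase 11 of 17 were higher in GM and 1 in liver (median 1.43). COX8H, the heart and muscle subunit of cytochrome oxidase, ran from 15.47 over 16.11 to 16.65 in GM and from 5.32 over 5.63 to 6.25 in liver, a measured fold of 1463 with 1 liver array above background (adjusted p = 2.07e-26). The subunits ATP5G1 (2.10) and NDUFV2 (2.00) were also higher in GM, without overlap of the arrays. COX6C, NDUFA4, SDHB and SDHD, subunits of all cells, were among those not called and differed by 0.52 to 0.73.

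Mitochondrial fatty acid oxidation went both ways, with 4 genes higher in GM, 3 in liver and 4 not called (median 0.15). CD36, which brings fatty acids into the cell, ran from 14.16 over 14.54 to 15.18 in GM and from 7.28 over 7.89 to 8.54 in liver (97.3-fold; adjusted p = 4.44e-24). HADHA and ACADL, enzymes of the oxidation cycle itself, differed by 0.21 and 0.15. The enzymes ACADS (-1.23) and ECI2 (-1.53) of the same list were higher in liver, without overlap of the arrays.

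Ribosomal proteins were nearly level, with 2 of 25 called, both higher in GM, and differences from -0.58 (RPS21) to 1.30 (RPS16). RPSA, of the small subunit, ran from 16.23 over 16.57 to 16.84 in GM and from 16.47 over 16.55 to 16.97 in liver (-0.01 ± 0.06, n = 14; limma adjusted p = 0.853). The call of RPLP0, of the large subunit (1.04 ± 0.12), fell under 2-fold without pig f_2899 or pig f_2950 (0.99 and 0.97). With each array scaled to its 75th percentile in place of quantile normalization, 8 ribosomal genes passed as higher in GM, so that their number depended on the scaling.

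Proteasome genes went both ways. Of 11 genes, 3 were higher in GM, 4 in liver and 4 were not called. PSMD4 and PSMC5 of the regulatory cap and PSME3, an activator subunit, were higher in GM by 1.68, 1.25 and 1.20. The genes higher in liver were PSMB8 (-1.24) and PSMB9 (-1.43), catalytic subunits of the immunoproteasome, and PSME1 (-1.71) and PSME2 (-1.10), subunits of another activator. In the secretory pathway of the endoplasmic reticulum 3 of 8 genes were called, all higher in liver, among them the chaperone HSP90B1 (-2.22 ± 0.09).

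Related forms of a protein, here paralogs, were set side by side, the form known from muscle and the form known from other tissues. For 10 pairs both forms were tested, and the muscle form was higher in GM in all 10, each gene taken by its brightest probe. Its partner was higher in liver in 2 pairs, higher in GM in 2 and not called in 6. The growth factors IGF2 and IGF1 were counted as a pair with IGF2 as the muscle form. The median of the 5 IGF2 probes (0.45) was under 2-fold. For the carnitine transferases, which pass fatty acids into mitochondria, CPT1B ran from 11.27 over 12.27 to 13.35 in GM and from 7.92 over 8.54 to 10.25 in liver (12.1-fold higher in GM; adjusted p = 3.41e-15). CPT1A ran the other way, at 10.84, 11.72 and 12.11 in GM and 13.79, 15.75 and 16.35 in liver (14.2-fold higher in liver; adjusted p = 2.85e-18). Neither gene overlapped between the tissues.

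The second pair with opposite calls was COX7A1 and COX7A2, subunits of cytochrome oxidase. COX7A1 was 4.68-fold higher in GM, at 15.80, 16.44 and 17.15 against 13.69, 14.17 and 14.80. COX7A2 was 2.29-fold higher in liver, at 11.87, 12.43 and 12.84 against 13.30, 13.67 and 14.02, and it fell under 2-fold when the processed signal was used (-0.95). Caveolin and calpain did not split, since CAV1 (3.97 ± 0.15) and CAPN2 (2.85 ± 0.08) were higher in GM together with the muscle forms CAV3 (4.63) and CAPN3 (7.48). For MYL6, UCP2, ADSS, TPM4, PRKAG1 and IGF1 the other form differed by less than 2-fold. Of the 19 muscle forms tested, with or without a partner, 18 were higher in GM by their brightest probe and the nuclear receptor PPARD (-0.27) was not called. Among forms without a tested partner, PRKAA2, a catalytic subunit of the energy sensor AMPK, was higher in GM (3.70), and the calcium pump ATP2A2 (-2.76) and the lactate dehydrogenase LDHB (-1.21) were higher in liver. The call of LDHB was lost when arrays were scaled to their 75th percentile.

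**Figure D3:**
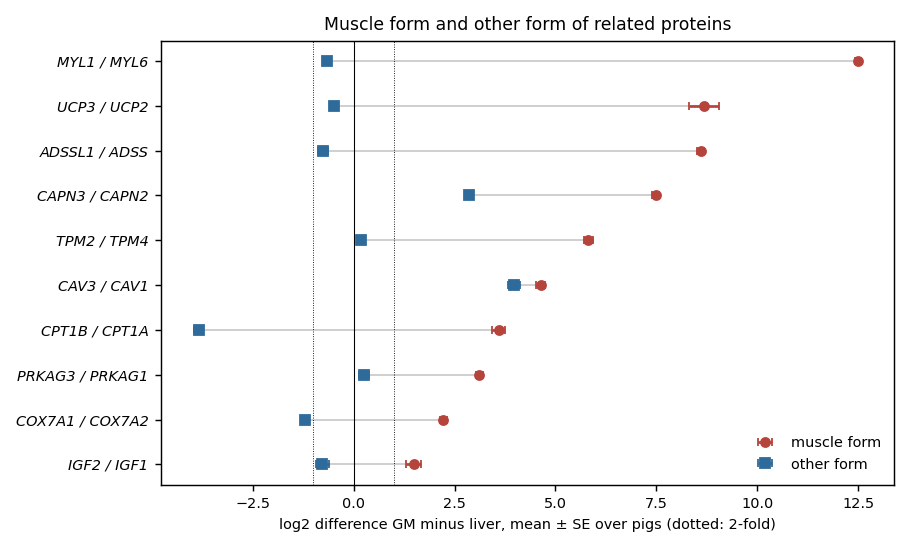
Log2 difference GM minus liver (mean ± SE over pigs) of the muscle form (circles) and the other form (squares) in the 10 pairs with both forms tested, and dotted lines at 2-fold. All 10 muscle forms, each shown by its brightest probe, lie right of the 2-fold line, although the median of the 5 IGF2 probes (0.45) does not. Of the other forms only CPT1A and COX7A2 lie beyond the 2-fold line on the liver side.

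Secreted signals and their binding proteins were divided between the tissues. Of 12 genes of the insulin-like growth factor and growth hormone axis 5 were higher in GM and 4 in liver. The growth factor IGF2 ran from 13.16 over 14.59 to 15.26 in GM and from 11.80 over 12.99 to 13.61 in liver with its brightest probe (2.80-fold), but the median of its 5 probes was 0.45, under 2-fold, which leaves 4 genes of the axis higher in GM. IGF1, known as a liver hormone, was not called, at 7.45, 8.53 and 8.86 in GM and 7.62, 9.18 and 9.96 in liver (-0.78 ± 0.16), and the receptors GHR (-0.14) and IGF1R (0.01) were near 0.

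The binding proteins, which hold the factors in blood or tissue, went in opposite directions. IGFBP6 ran from 13.30 over 14.19 to 15.40 in GM and from 8.32 over 8.85 to 9.48 in liver (41.6-fold), and IGFBP5 was also higher in GM (2.52). IGFBP2 ran from 9.69 over 10.08 to 11.18 in GM against 14.28, 15.31 and 16.30 in liver (35.5-fold higher in liver). IGFBP3 (-3.56) and IGFALS (-2.69), which carry the factors in plasma, were higher in liver as well.

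Antioxidant and iron genes were higher in liver in 7 of 16 cases and in GM in 2. The metal-binding protein MT1A ran from 7.62 over 8.83 to 11.64 in GM and from 18.18 over 18.38 to 18.60 in liver, and SELENOP, the plasma carrier of selenium, differed by -3.43. The related MT3 was higher in GM (1.15 ± 0.20), but the 4 arrays of a single GM slide, at 11.68 to 12.26, stood apart from the other 12 at 13.55 to 14.36. Its liver arrays ran from 11.65 over 12.31 to 13.18. The arrays of that slide were all F2 E. Without the 4 pigs of the liver slide scanned on another day the difference was 0.92 and was not called. The part of the slides in it was not tested.

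Matrix genes pointed to GM in 8 of 15 cases and to liver in 3. DCN, a proteoglycan of collagen fibrils, ran from 14.66 over 15.15 to 15.84 in GM and from 9.87 over 10.93 to 11.49 in liver (19.3-fold). The collagens COL5A2 and COL5A1, the collagen-binding SPARC (3.05) and the protease MMP2 (3.42) were among those higher in GM. MMP14 (-1.47), SPP1 (-1.36 ± 0.33; median of its 2 probes -0.97) and MMP9 (-1.08) were higher in liver, and MMP9 fell just under 2-fold without pig f_2950.

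Markers of other cells differed as well. Adipocyte genes were higher in GM in 7 of 11 cases (median 3.25). FABP4, the fatty acid binding protein of fat cells and endothelium, ran from 14.15 over 14.93 to 16.11 in GM and from 6.96 over 8.37 to 9.24 in liver (95.3-fold). ADIPOQ, an adipocyte hormone, ran from 9.04 over 10.06 to 11.52 against 5.29, 5.95 and 6.28 (18.7-fold with 11 liver arrays above background). The adipocyte genes PLIN1 (0.87), CIDEC (0.21), LEP (0.13) and RETN (-0.28) were not called. LPL, which adipocytes share with muscle fibres, was at least 64.9-fold higher in GM.

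Macrophage and Kupffer cell genes were higher in liver in 9 of 9 cases (median -2.69). CD14, a receptor for bacterial lipid that hepatocytes also make, ran from 7.45 over 7.94 to 8.76 in GM and from 14.19 over 14.54 to 14.88 in liver (95.3-fold). CD163, a scavenger receptor of resident macrophages, ran from 9.88 over 10.97 to 12.08 against 13.66, 13.95 and 14.74 (7.85-fold). Lymphocyte genes were higher in liver in 7 of 13 cases, with smaller differences that ran from -1.02 (CD3E) to -1.97 (KLRK1) among those called. The epithelial marker EPCAM of bile ducts differed by -4.05.

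In GM, MBP of myelin was 5.03-fold higher, at 10.34, 11.15 and 12.34 against 8.14 to 9.54, and the smooth muscle gene CNN1 differed by 4.44. Endothelial genes PECAM1 (0.79), CDH5 (-0.60), NOS3 (-0.60) and ENG (-0.78) were not called. The globin HBE1 of red cells (-0.35) was not called either, and of 3 kidney markers tested the hormone receptor PTH1R was higher in liver (-2.84). The part of these cell types in the tissue differences was not tested.

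Some probes with very large differences carry no gene name in the reference used. A_72_P263042 ran from 18.56 over 18.81 to 18.93 in GM and from 5.08 over 5.48 to 6.01 in liver, a measured fold of 9884 with 2 liver arrays above background, and A_72_P248052 differed by 13.23 ± 0.07 with 5. In the other direction A_72_P331273 ran from 5.57 over 6.50 to 8.11 in GM and from 18.15 over 18.37 to 18.79 in liver (3436-fold, n = 14), and A_72_P406408 differed by -11.66 ± 0.28, with 10 and 11 GM arrays above background. These rank with the largest named genes in each direction. Probes of the same gene were called in opposite directions in 4 named genes, MYLK, SLC5A10, TPM3 and TUBB, so the direction of these genes depends on the probe.

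Pigs differed in how far the tissues lay apart. Over the 311 list genes tested the median SD of the difference between pigs was 0.46, and 258 genes had the same direction in every measured pig. In 28 genes the SD reached 1 log2 unit or more. FST (1.80), SREBF1 (1.78) and UCP3 (1.77) varied most. The acute phase and iron genes of liver were variable too. HAMP, the hormone that limits iron uptake, ran from 11.29 over 13.99 to 16.15 in liver and from 6.89 to 7.56 in GM. SAA3, an acute phase apolipoprotein, ran from 10.72 over 13.44 to 16.69 in liver, and the acute phase protein CRP from 14.04 over 15.47 to 18.27. CRP was spread on GM arrays too, from 8.13 over 8.85 to 11.74. The spread of HAMP lay on the liver side.

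On the GM side the slow fibre genes varied together. The genes MYH7, MYL2, TNNI1, TNNT1, MYOZ2, PLN and TPM3, grouped after their values had been seen, were all lowest in pig f_2886 and highest in pig f_2968, both F2 C females. Their highest and lowest GM arrays were 2.76 (MYH7) to 5.62 (TNNI1) log2 units apart. The mean of the 7 genes ran from 12.83 over 15.56 to 17.29 in F2 C and from 13.83 over 15.09 to 16.85 in F2 E, so the lines overlapped. It ran from 14.63 over 15.56 to 16.85 in males and from 12.83 over 14.64 to 17.29 in females. For 8 fast fibre genes the arrays were 0.20 to 1.01 log2 units apart, and these genes lay close to 19.18, the highest signal of any named probe.

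Transcripts of liver lists were seen on GM arrays at levels that differed from pig to pig. The mean of 10 liver marker genes on GM arrays ran from 6.94 over 8.00 to 9.66, against 18.14 to 18.70 on liver arrays. It was highest in pigs m_2890 (9.66), m_2875 (9.09), m_2943 (8.89) and m_2878 (8.85), all males and spread over 3 GM slides, and ran from 7.36 to 9.66 in males and from 6.94 to 8.44 in females. These 4 pigs held the 4 highest GM values for 14 of the 129 liver-list genes tested, and 3 or more of them did so for 30. The 10 marker genes by which the 4 pigs were picked are among the 129, so these counts follow in part from that choice. Some liver-list genes bright on GM arrays, such as C3 and FCN2, did not follow that order. APOA1, itself among the 10 marker genes, did not follow it either. Without the 4 pigs all 25 carrier and acute phase genes were still called, with a median difference of -9.06. Marker genes such as ALB are in that list, so this median also depends on how the pigs were picked. No list changed by more than 1 gene. Macrophage genes went from 9 to 8, matrix genes higher in GM from 8 to 9, respiratory chain genes from 11 to 10 and ribosomal genes from 2 to 3. Muscle markers on liver arrays stayed between 6.27 and 6.60.

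ALB on GM arrays had a mean of 11.70 in males and 9.36 in females, and its tissue difference, females minus males, differed by -2.19, with an unadjusted limma p = 0.000366 that did not pass adjustment over all probes (adjusted p = 0.329). The source of the liver transcripts on GM arrays was not tested.

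**Figure D4:**
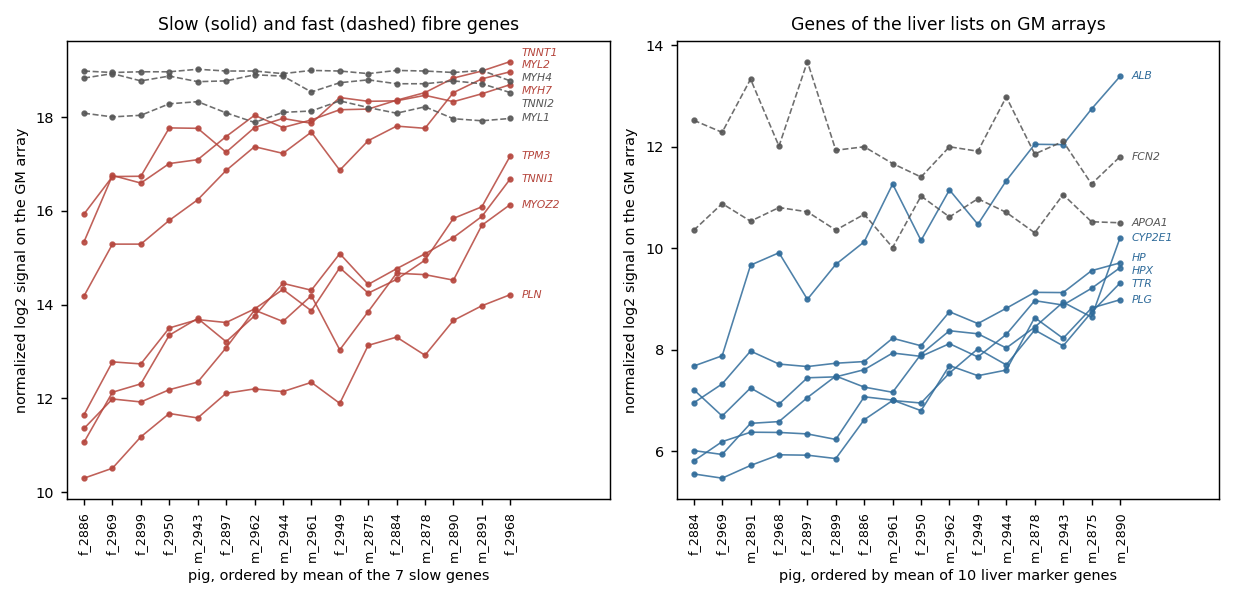
Normalized log2 signal on the GM array of each pig (1 point per pig, lines join a gene). In the left panel, pigs ordered by the mean of the 7 slow fibre genes, the slow genes (solid) rise by 2.76 to 5.62 log2 units while the 3 fast genes (dashed) stay level near the top of the scale. In the right panel, pigs ordered by the mean of 10 liver marker genes, ALB, TTR, HP, HPX, PLG and CYP2E1 (solid) rise and APOA1 and FCN2 (dashed) do not. Of the genes drawn there, all but PLG and FCN2 are among the 10 markers that set the order.

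The tissue difference was then compared between the lines. Among 27977 probes tested in both, 10136 were called in F2 C and 9445 in F2 E, and 8748 were called in the same direction in both lines, which was 86.3% of the F2 C calls and 92.6% of the F2 E calls. No probe was called in opposite directions. The difference of GM and liver depended on the line in 13 probes (0.0452% of those tested; limma adjusted p below 0.05), and 2195 had an unadjusted p below 0.05. With slide as a random block 2 probes passed, and with 1 pig left out 5 to 42 (42 without pig f_2949). Of the 13 probes, 3 had a gene name through RefSeq.

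IYD, which recovers iodide from iodotyrosines, was further apart between the tissues in F2 E (-7.01) than in F2 C (-5.35). In liver it ran from 10.44 over 11.35 to 12.33 in F2 C and from 12.34 over 12.62 to 13.32 in F2 E, so that the lines did not overlap. On GM arrays it was near background in both lines, at 5.55 to 6.25 and 5.39 to 6.28. The tissue difference in F2 E minus that in F2 C was -1.67 ± 0.23 (limma adjusted p = 0.00498). With slide as a random block the adjusted p was 0.0959, the dependence was called in 3 of 8 alternatives, and within the liver slides that held both lines F2 E was higher by 1.41 and 1.32.

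UCP3, a mitochondrial carrier of muscle, showed its line difference on liver arrays. These ran from 6.21 over 8.61 to 10.54 in F2 C and from 5.63 over 6.07 to 6.27 in F2 E, while GM arrays overlapped at 15.06 to 16.64 against 14.92 to 16.90. The tissues were 10.05 apart in F2 E and 7.30 in F2 C (limma adjusted p of the dependence 0.0459). UCP3 was above background on 13 of the 16 liver arrays, and its liver signal in F2 E was near background. The dependence was not called with slide as a random block (adjusted p = 0.379) and was called in 4 of the 16 analyses that left out 1 pig. Within the liver slides that held both lines, with 2 pigs of each, F2 E minus F2 C was -3.59 and -0.99. GALP, a neuropeptide gene, was not above background on any GM array and ran from 7.00 over 7.49 to 7.84 in F2 C liver and from 5.18 over 5.85 to 7.51 in F2 E liver (adjusted p = 0.00713; with slide as a random block 0.0959). It was lower in F2 E by 1.63 and 1.80 within the liver slides that held both lines.

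The study's methods assign the probe A_72_P040316 to TBR1, a T-box transcription factor. Its signal differed on the GM side, at 5.20, 5.86 and 6.77 in F2 C and 6.61, 8.10 and 9.17 in F2 E, with liver arrays at 5.30 to 6.83 and 5.32 to 6.31 (adjusted p = 0.00693). The probe was above background on 10 GM arrays and 3 liver arrays. Every GM slide held a single line, so line and slide cannot be told apart in GM. A_72_P087611 had the lowest adjusted p (3.01e-05), with a difference of 3.73 in F2 C and -0.48 in F2 E, but only 8 pigs had unmarked spots in both tissues. The 4 F2 E pigs among them all lay on a single GM slide. A_72_P381473 was 1.22 higher in GM in F2 C and 2.59 in F2 E (adjusted p = 0.00424), and it and A_72_P087611 passed with slide as a random block (adjusted p = 0.0326 and 0.000245). The other 11 did not. Since each GM slide held a single line, the random block cannot separate slide from line in GM, also for the probes that passed.

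**Figure D5:**
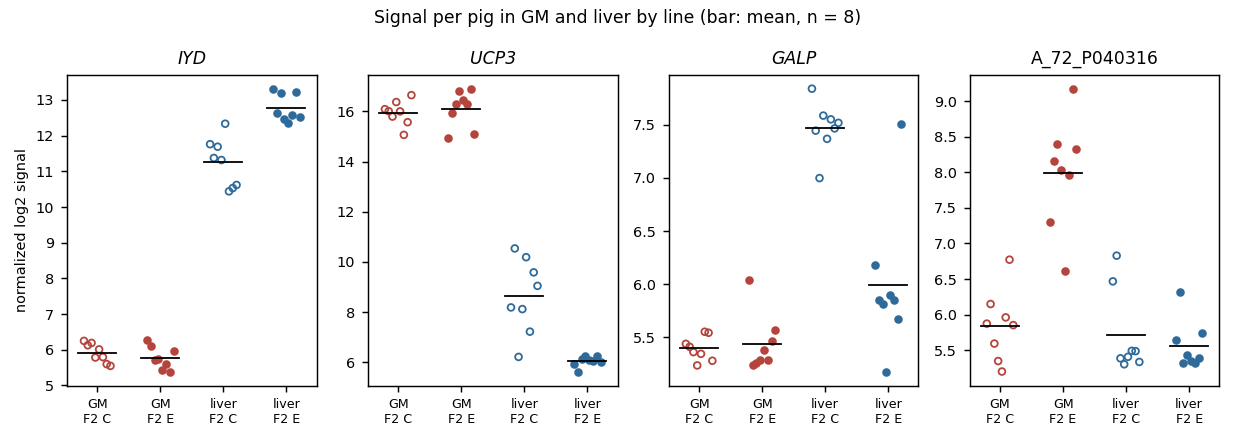
Normalized log2 signal of each pig in GM and liver by line (open points F2 C, filled points F2 E, bars the means, n = 8) for IYD, UCP3, GALP and the probe A_72_P040316. The lines separate on liver arrays for IYD, differ on liver arrays for UCP3 and GALP, and differ on GM arrays for A_72_P040316.

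Castrated males and females were compared in the same manner. The tissue difference depended on sex in 9 probes (0.0313% of those tested), none with a RefSeq name, and 2116 had an unadjusted p below 0.05. The lowest adjusted p belonged to A_72_P037276 (8.61e-05), with a tissue difference of 1.07 in males and -1.64 in females. Its GM arrays lay at 9.63 to 9.96 in males and at 5.28 to 6.03 in females, and 8 of the 16 GM arrays were above background, so its difference in females is set against signal near background. Likewise, on GM arrays A_72_P328713 and A_72_P155972 (4.95 to 5.60 and 5.17 to 6.05 in females) and A_72_P348488 and A_72_P391803 (4.98 to 6.91 and 5.18 to 5.69 in males) were low in 1 sex. In the same sex these probes were low on liver arrays too, at 5.16 to 6.07, 5.62 to 6.07, 4.93 to 5.53 and 5.15 to 5.50. With 1 pig left out 6 to 21 probes passed. In 8 of the 9 probes the difference was lower in females than in males, and in A_72_P190866 it was higher in females by 1.14. Without the 4 males of the liver slide that was scanned on another day, no probe passed (smallest adjusted p = 0.0572), and 1075 had an unadjusted p below 0.05.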

How the data were processed

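The arrays were scanned and read with Agilent Feature Extraction (version 10.5.1.1 per the file headers), and the authors deposited the scanner intensity of each spot, background not subtracted in the median signal used here. Tables of the authors' normalized log2 values and comparisons were not used. Samples were grouped by tissue, line and sex from the labels. The log2 median intensity of non-control spots was quantile normalized over the 32 arrays. Spots marked as non-uniform or as population outliers were then set missing, which is why n fell to 13 to 15 for some genes, and spots of a probe were averaged. A probe was kept if its linear signal exceeded 25 and cleared the background on 50% or more of GM arrays or of liver arrays, with 8 or more complete pairs.

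Within-pig differences were tested with limma 3.58.1 (R 4.3.3) and Benjamini-Hochberg adjustment over all probes tested. Dependence on line or sex was tested on these differences. The scripts were tested on simulated data. The pig number marked the same animal in both tissues, and deviations of the GM and liver arrays of a pig correlated with a median of 0.173 over 27920 probes, against -0.0123 between different pigs (14 of 16 pigs over 0.1).

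Lists and members were chosen with earlier results of these data known. Genes were named where they were among the 12 largest differences in a direction, isoform pairs, the 4 largest or contrary members of a list, bright genes closest to 0, genes the study names, the lowest adjusted p for line and sex, or the 2 largest unnamed probes in a direction. Other genes were chosen after their values were seen. Of 3239 probes with a RefSeq accession 2628 matched, 2590 with a name. "At least" folds set the bright tissue's mean against the higher, per array, of the lowest signal above background and the dim probe's own signal. The number of arrays limits the precision. Alternatives were other scalings, filters, thresholds, tests, blocks and subsets of pigs. Promoter and protein sequences were not analysed here. Some genes are not reported here.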

Additional observations from a re-analysis of the deposited data

Results flagged for a closer look

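In 380 groups of a named gene's within-pig differences in a line, 23 (6.05%) held a pig far from the other pigs of its line, and chance flags about 1 in 20 groups. Pig f_2949 of F2 E accounted for 8 of them: TPM4 was -0.80 in it (median of the line 0.10), ENO3 10.14 (11.65), TPI1 2.89 (4.92), FHL3 8.22 (7.56), DAD1 -2.01 (-0.37), GPI 2.20 (4.35), MEF2C 6.66 (5.47) and MSTN 1.75 (3.38). The glycolytic enzymes ENO3, TPI1 and GPI were thus closest between the tissues in this pig, while FHL3 and MEF2C were furthest apart.

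Other F2 E pigs far from their line were f_2950 for MYH2 (12.41) and ACLY (-0.72), m_2890 for APOC3 (-9.23) and CAT (-3.53), f_2899 for PPARD (0.65) and m_2943 for SERPINC1 (-9.46). In F2 C they were f_2884 for MYL1 (11.77), f_2968 for AMPD1 (9.94), DAO (-8.82) and RPSA (-0.29, where 6 pigs were measured), m_2875 for CAPN3 (6.87) and CAV3 (3.48), f_2886 for HMOX1 (-2.68) and m_2961 for TNXB (4.55) and A_72_P401953 (-0.32).

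The tissue difference differed between the lines (F2 E minus F2 C, limma adjusted p below 0.05) by -4.22 for A_72_P087611, 1.37 for A_72_P381473, -1.67 for IYD, 2.30 for A_72_P040316, 1.33 for A_72_P401953, 1.52 for GALP, 1.20 for A_72_P005301, 2.74 for UCP3, -1.31 for A_72_P074096, -2.67 for A_72_P267616, 1.31 for A_72_P386058, -0.94 for A_72_P383168 and -1.39 for A_72_P292369. It differed between the sexes (females minus males) by -2.71 for A_72_P037276, -1.79 for A_72_P359923, -1.33 for A_72_P155972, -2.15 for A_72_P348488, -1.14 for A_72_P328713, -1.38 for A_72_P391803, -1.54 for A_72_P133611, 1.14 for A_72_P190866 and -1.27 for A_72_P127221.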

How the results depend on the processing

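The counts of 5001 probes higher in GM and 4787 higher in liver became 1966 and 2059 with a 4-fold limit and stayed within 1.5 times under every other setting but one, the requirement that a probe be above background on all 32 arrays, which left 16435 probes and 2578 higher in liver (list genes higher in liver 79, isoform pairs with the muscle form higher in GM 5). Leaving out 1 pig at a time gave 4969 to 5094 and 4743 to 4854. Without the replicate block, that is without pairing arrays by pig, the counts were 4996 and 4788, and no other count moved by over 1.5 times. Pairs of isoforms called in opposite directions fell from 2 to 1 with the processed signal scaled to the 75th percentile and with the 4-fold limit. Scaling the median signal to the 75th percentile raised the median of all probes by 0.17.

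Counts of probes that depended on line or sex were less stable. The 13 for line were 2 with slide as a random block, 7 with the median signal scaled to the 75th percentile or without the presence filter, 6 with marked spots kept, and 5 to 42 when 1 pig was left out. It was 42 without pig f_2949, and 5 to 8 without pigs m_2875, f_2886, m_2944, f_2968, m_2943, m_2961, m_2962, f_2969, m_2891, f_2897 or f_2950. The 9 for sex were 14 with the processed signal and 6 to 21 with 1 pig left out (21 without pig m_2891). In alternatives chosen after seeing the data, the counts for line were 2 without the 4 pigs with most liver transcripts in GM, 3 without the 2 pigs with most marked liver spots and 2 without the liver slide scanned on another day, and those for sex 2 and 0 without the first and the last of these. Direction reversed for A_72_P087611 in F2 E alone (-0.47) and A_72_P037276 in males alone (1.08). Of 190 named genes and probes, 143 kept their call status and direction under all settings. The cause of these changes was not tested. Signal near background limits the differences of dim probes to lower bounds.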
